A study of Mus musculus with 16 samples.

Results

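The 35 genes described here encode factors that build ribosomes in the nucleolus. Their symbols came as a list of nucleolar assembly factors. No measured value enters the rule for the list, but the list was proposed with earlier results of these data known. The symbols were mapped to the Ensembl identifiers of the deposited count table. All 35 were found among its 56980 identifiers, and all 35 passed the filter on low counts that left 17972 genes for testing. The tissue was kidney cortex of male C57Bl/6J mice, from which RNA was sequenced. The question was how loss of Degs1, which encodes the dihydroceramide desaturase that makes ceramide, alters the response of the kidney to ischaemia-reperfusion.

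Controls were Degs1 fl/fl littermates, called fl/fl below. The knockout mice, called iGKO, carried the floxed Degs1 gene together with Rosa26-CreERT2, a tamoxifen-activated Cre expressed from a ubiquitous promoter, so the deletion was global and not restricted to a kidney cell type. Mice of both genotypes received 3 mg of tamoxifen on 5 successive days by intraperitoneal injection, starting at 9 weeks of age. At 12 weeks one set of mice had both renal pedicles clamped for 28 min, here called IRI for ischaemia-reperfusion injury, and the other set was sham-operated. After IRI, tissue was taken at 24 h of reperfusion. The time for sham-operated mice is not given here. Each genotype thus had an IRI group and a sham group, which makes 4 groups of 4 libraries, named fl/fl IRI, fl/fl sham, iGKO IRI and iGKO sham. The labels gave 1 batch. They did not state that each library came from a separate animal, so p-values measure the spread between these samples.

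Ribosome biogenesis starts when RNA polymerase I transcribes the ribosomal RNA precursor in the nucleolus. Small nucleolar ribonucleoproteins (snoRNPs) modify the precursor at guided positions, the box C/D class by ribose methylation and the box H/ACA class by pseudouridylation. Separate sets of assembly factors then fold, cut and export the small and the large subunit. The transcription factor MYC is known to activate many genes of this programme, and growing cells are known to raise it. In the kidney, tubule cells that survive injury are known to re-enter growth during repair.

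Promoter windows of 250 bases upstream of the start were taken from RefSeq (GRCm38.p6) by gene symbol. They were found for 30 of the 35 genes. Fbl, Rrp12, Bop1, Rrs1 and Npm1 had no entry. The windows were searched on both strands for the MYC-type E-box CACGTG, the ETS-family core CCGGAAG, which reads CTTCCGG on the other strand, the CCAAT box and the TATA box in the form TATAAA. These motifs can overlap, and a match describes letters only. A gene with more than 1 promoter, as 3 of the 30 had, was counted when any of its windows held the motif. CCGGAAG was in 6 of 30 genes (20.0%) against 7.8% of all 27025 genes in the table, and CACGTG was in 1 of 30 (3.3%) against 6.9%. CCAAT was in 8 genes (26.7%, all genes 37.5%) and TATAAA in 2 (6.7%, all genes 14.3%). The median GC content was 58.0% for the 30 genes and 52.4% for all genes. Among the other ribosome biogenesis genes with an entry, 34.5% of 110 held CCGGAAG, as did 29.8% of 57 cytosolic and 26.5% of 68 mitochondrial ribosomal protein genes. For CACGTG these shares were 11.8%, 8.8% and 7.4%.

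The 60 bases before the start are printed 5′ to 3′ on the coding strand for the 6 genes with the ETS core, with the ETS core on either strand and the E-box in capitals. Nop2 holds the only E-box. Ltv1 holds a second ETS core outside the printed bases, at 98 to 92 bases before the start. Nop58 and Mybbp1a are added as genes with large responses and no match to these letters.
Gar1: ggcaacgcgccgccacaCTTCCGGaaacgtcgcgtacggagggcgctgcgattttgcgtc
Nhp2: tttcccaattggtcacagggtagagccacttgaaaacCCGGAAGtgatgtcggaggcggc
Heatr1: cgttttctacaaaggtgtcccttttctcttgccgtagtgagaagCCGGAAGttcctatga
Ltv1: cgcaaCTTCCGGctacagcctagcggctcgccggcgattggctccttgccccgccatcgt
Nop2: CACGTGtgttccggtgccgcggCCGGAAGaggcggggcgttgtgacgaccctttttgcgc
Nolc1: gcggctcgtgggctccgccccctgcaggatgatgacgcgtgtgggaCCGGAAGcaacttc
Nop58: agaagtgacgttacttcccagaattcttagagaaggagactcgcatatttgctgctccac
Mybbp1a: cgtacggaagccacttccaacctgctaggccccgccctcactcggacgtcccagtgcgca
On GRCm38.p6 the windows lie at chr3:129831397-129831456 (minus strand) for Gar1, chr11:51619713-51619772 (plus strand) for Nhp2, chr13:12395315-12395374 (plus strand) for Heatr1 and chr10:13193138-13193197 (minus strand) for Ltv1. Those of Nop2, Nolc1, Nop58 and Mybbp1a lie at chr6:125131823-125131882 (plus strand), chr19:46075787-46075846 (plus strand), chr1:59684946-59685005 (plus strand) and chr11:72441267-72441326 (plus strand).

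Total counts ranged from 12704273 to 18816343 per library, and the lowest count of any of the 35 genes in any library was 44. Levels are in CPM, the counts of a gene scaled to library size with TMM factors, and a level with ± is a group's mean and SD (n = 4). Degs1 averaged 100.3 ± 12.3 CPM in fl/fl sham, 113 ± 18.2 in fl/fl IRI, 57.0 ± 14.3 in iGKO sham and 54.5 ± 6.81 in iGKO IRI, so the group means matched the genotype labels. In all, 3 libraries stood apart. The library iGKO sham 4 had 0.443% of its counts on mitochondrially encoded genes, against 6.07% to 6.45% in the other iGKO sham libraries. The library fl/fl IRI 1 held 3730 CPM over 10 tubular injury markers, against 9866 to 15601 in fl/fl IRI 2 to 4. The library iGKO IRI 2 held 10146 CPM over 8 fibroblast and mural markers, against 1191 to 2578 in the other iGKO IRI libraries. Counts of calls and medians of the 35 genes are also given with libraries left out, in part as ranges in the closing section. Values of single genes are mostly given on all libraries. The tissue carried its label: the summed level of 14 proximal tubule markers was 32688 to 41532 CPM in fl/fl sham, and none of them was at 0 in any group.

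In fl/fl kidney most of the ribosome biogenesis genes were higher after IRI than after sham. A gene is called when its Benjamini-Hochberg adjusted p over all tested genes is under 0.05 in edgeR's quasi-likelihood test. Of the 35 genes, 29 (82.9%) were called higher after IRI in fl/fl mice, where 8.46% of all tested genes were called higher. None was called lower, where 7.01% of all genes were. DESeq2 also called 29 higher and 0 lower, counts given here without the share over all genes. In edgeR 0 of the 35 genes had an unadjusted p under 0.05 for a lower level, where 14.8% of all genes had one. The groups did not overlap for 27 genes, all higher, where 9.65% of all genes had separate groups in that direction and 9.82% in the other. The median log2 fold change of the 35 genes was 0.74, with quartiles of 0.58 and 1.04, and that of all genes was 0.01. Since these are bulk samples, fewer cells of a type and less RNA per cell cannot be told apart, nor can more of either.

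**Figure D1:**
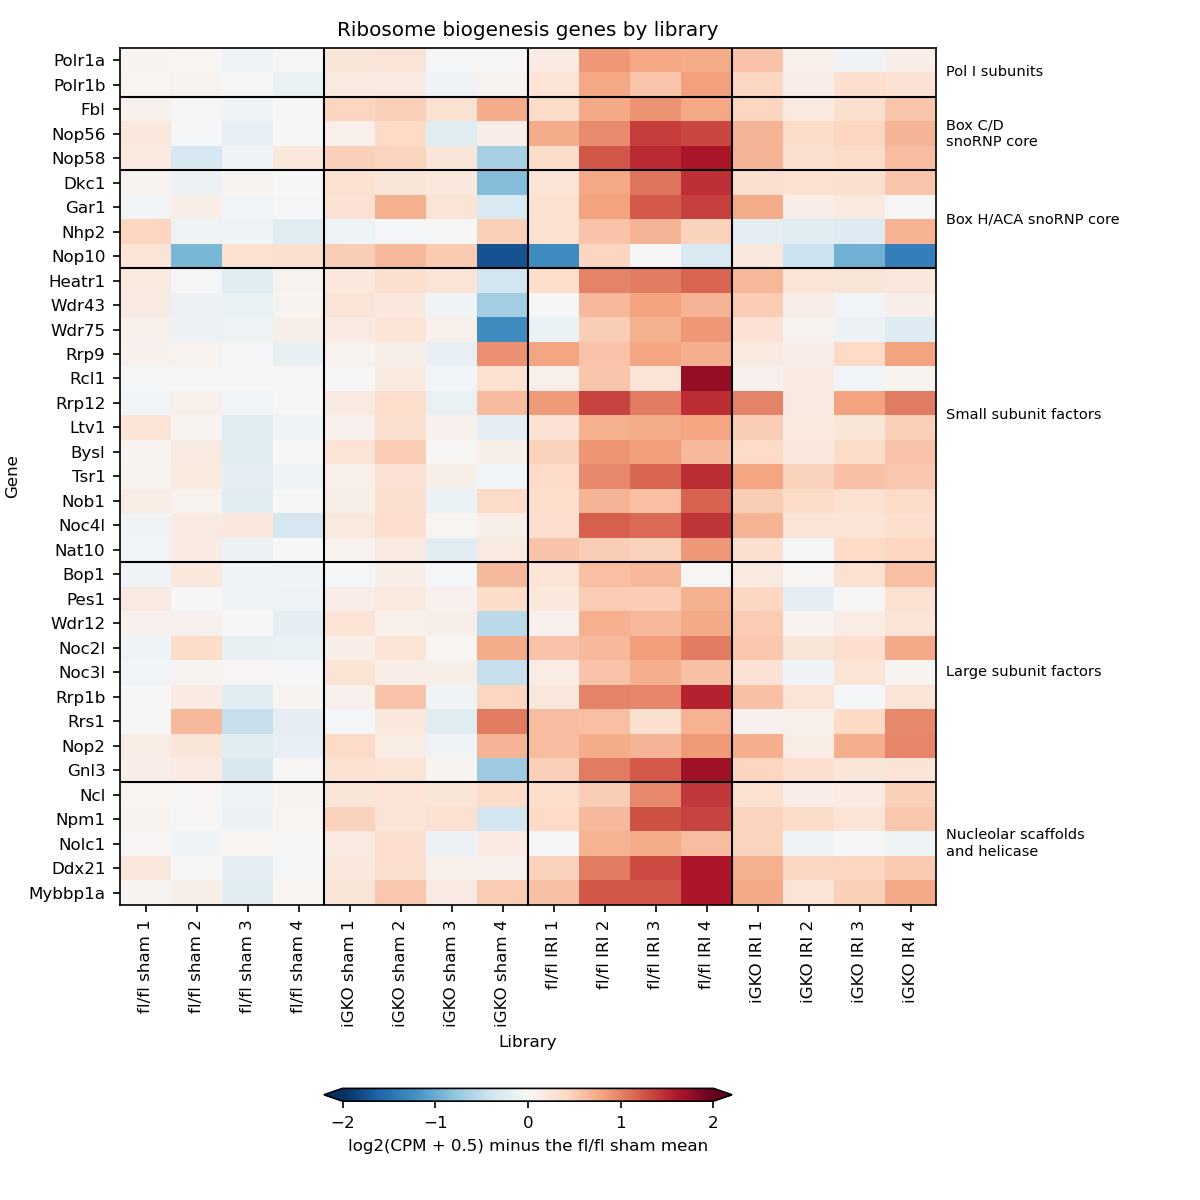
Each cell shows the level of a ribosome biogenesis gene (rows, grouped by role) in a library (columns), as log2(CPM + 0.5) minus the mean of the 4 fl/fl sham libraries. Libraries fl/fl IRI 2, 3 and 4 are the warmest columns, fl/fl IRI 1 is paler, and the Nop10 row and the iGKO sham 4 column run in mixed directions.

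The pair of RNA polymerase I subunits rose. Polr1a encodes the largest subunit of the enzyme and Polr1b its partner in the catalytic core. Polr1a measured 46.8, 46.0, 41.6 and 45.0 CPM in fl/fl sham 1 to 4 and 50.0, 82.2, 77.1 and 75.7 CPM in fl/fl IRI 1 to 4. The lowest injured library, fl/fl IRI 1, lay just above the highest sham library, and the fitted rise was 1.59-fold (log2 fold change 0.67 ± 0.17 SE, adjusted p = 0.0141). Polr1b measured 28.4, 28.9, 27.7 and 25.1 CPM after sham and 33.2, 47.5, 40.7 and 48.9 CPM after IRI. Again no injured library fell within the sham range, and the rise was 1.55-fold (log2 fold change 0.63 ± 0.14 SE, adjusted p = 0.00707).

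All 3 core proteins of the box C/D snoRNP rose, and Nop58 had the highest fold change of the 35 genes. Fbl, the methyltransferase fibrillarin, measured 27.8, 25.6, 24.7 and 26.3 CPM in fl/fl sham and 33.9, 44.3, 49.3 and 44.9 CPM in fl/fl IRI. The groups were separate, with a rise of 1.65-fold (log2 fold change 0.72 ± 0.14 SE, adjusted p = 0.00420). Nop56, which with Nop58 forms the scaffold that places fibrillarin on its guide RNA, measured 26.0, 21.9, 19.8 and 22.1 CPM after sham and 37.6, 43.6, 59.1 and 57.4 CPM after IRI. It had the smallest p of the 35 genes, with a rise of 2.20-fold (log2 fold change 1.14 ± 0.17 SE, adjusted p = 0.00117). Nop58 measured 23.3, 16.0, 19.4 and 23.7 CPM after sham and 26.5, 48.7, 58.0 and 64.3 CPM after IRI. Its fl/fl IRI 1 value was just above the sham range, the other injured libraries were far above it, and the rise was 2.40-fold (log2 fold change 1.26 ± 0.27 SE, adjusted p = 0.00634).

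Of the 4 core proteins of the box H/ACA snoRNP, 2 rose. Dkc1, the pseudouridine synthase dyskerin, measured 14.6, 12.8, 14.4 and 13.9 CPM in fl/fl sham and 16.8, 24.2, 29.7 and 39.1 CPM in fl/fl IRI. The injured libraries were spread out but lay above every sham library, with a rise of 1.97-fold (log2 fold change 0.98 ± 0.25 SE, adjusted p = 0.0173). Without fl/fl IRI 4, the highest library, the adjusted p of Dkc1 was 0.0596. Gar1, a small partner of dyskerin with a low level, rose from 3.80 ± 0.281 to 7.98 ± 2.59 CPM (log2 fold change 1.07 ± 0.28 SE, adjusted p = 0.0190), and its call was lost in 5 of 24 alternative fits. Nhp2, another partner, had overlapping groups, at 41.9 ± 9.38 and 59.2 ± 6.63 CPM in uninjured and injured tissue (adjusted p = 0.133). Nop10, the smallest protein of the particle, was the one gene of the 35 with a negative fold change. It measured 32.2, 13.9, 32.8 and 33.4 CPM in fl/fl sham and 10.7, 35.8, 26.2 and 21.4 CPM in fl/fl IRI. A single low library stood out in each group, the second after sham and the first after IRI, and the change was not called (log2 fold change -0.25 ± 0.47 SE, adjusted p = 0.759).

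Of the 12 small subunit factors, 10 rose. Rrp12, a helical-repeat protein of small subunit maturation and export, measured 18.5, 20.5, 18.4 and 19.4 CPM in fl/fl sham and 35.1, 49.9, 39.7 and 54.5 CPM in fl/fl IRI. Here fl/fl IRI 1 was well clear of the sham range, and the rise was 2.34-fold (log2 fold change 1.22 ± 0.21 SE, adjusted p = 0.00188). Tsr1, a GTPase-like factor of the late precursor, measured 26.0, 28.5, 21.7 and 23.2 CPM after sham and 32.3, 48.6, 56.1 and 69.9 CPM after IRI. The groups were separate and the rise was 2.08-fold (log2 fold change 1.06 ± 0.19 SE, adjusted p = 0.00252). Tsr1 overlaps exons of Srr on the other strand, and without a stated strand setting for the counting, reads of the pair cannot be told apart.

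Nob1, the nuclease that makes the final cut of the small subunit RNA, measured 19.2, 18.2, 14.8 and 17.3 CPM after sham and 22.2, 28.1, 26.4 and 39.8 CPM after IRI. All injured libraries were higher, most of all fl/fl IRI 4, with a rise of 1.68-fold (log2 fold change 0.74 ± 0.18 SE, adjusted p = 0.0110). Nat10, an acetyltransferase of ribosomal RNA, measured 34.0, 39.8, 32.6 and 35.8 CPM after sham and 53.0, 50.0, 48.7 and 64.8 CPM after IRI. It was among the few genes for which fl/fl IRI 1 was not the lowest injured library, and the rise was 1.52-fold (log2 fold change 0.61 ± 0.14 SE, adjusted p = 0.0115). Ltv1, an assembly factor of the subunit's head, measured 19.6, 16.8, 13.6 and 15.4 CPM after sham and 20.0, 26.8, 27.5 and 28.3 CPM after IRI. The lowest injured value was just above the highest sham value (log2 fold change 0.65 ± 0.16 SE, adjusted p = 0.0150), and without fl/fl sham 3 the adjusted p was 0.0584.

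Among the other small subunit factors, Noc4l rose from 10.0 ± 1.80 to 21.5 ± 6.32 CPM (log2 fold change 1.10 ± 0.21 SE, adjusted p = 0.00427). Heatr1, which also acts in transcription of the precursor, rose from 41.6 ± 5.08 to 78.4 ± 17.7 CPM (log2 fold change 0.91 ± 0.19 SE, adjusted p = 0.00578). Bysl rose from 19.3 ± 2.29 to 31.8 ± 4.31 CPM (adjusted p = 0.00634), with the limit that its exons overlap those of Ccnd3 on the other strand. Rrp9 rose from 14.9 ± 1.11 to 24.9 ± 1.78 CPM (adjusted p = 0.0290), and 6 of 24 alternatives lost the call. Rcl1, a cyclase-like protein of early cleavage, measured 15.2, 21.1, 17.2 and 49.3 CPM in fl/fl IRI against a tight 14.0 to 14.5 CPM in fl/fl sham. Its rise (log2 fold change 0.86 ± 0.28 SE, adjusted p = 0.0460) rested on fl/fl IRI 4: without it the log2 fold change was 0.33 with an adjusted p of 0.165. Wdr43 and Wdr75, which like Heatr1 belong to the factors that join the precursor first, were not called, with log2 fold changes of 0.57 (adjusted p = 0.0780) and 0.54 (adjusted p = 0.197). Both were lowest after injury in fl/fl IRI 1, at 29.0 and 17.2 CPM, inside the sham range or below it. Wdr43 was called in 3 of 24 alternatives, among them without fl/fl IRI 1 and without iGKO sham 4.

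Of the 9 large subunit factors, 7 rose. Gnl3, the GTPase nucleostemin, measured 26.2, 26.7, 19.0 and 24.4 CPM in fl/fl sham and 33.6, 49.8, 56.6 and 78.2 CPM in fl/fl IRI. The injured values were far apart from each other but all above the sham values, and the rise was 2.27-fold (log2 fold change 1.18 ± 0.24 SE, adjusted p = 0.00524). Noc2l, a partner of Noc3l in a transport complex of the precursor, measured 44.6, 60.8, 42.5 and 43.0 CPM after sham and 70.3, 74.0, 84.5 and 96.2 CPM after IRI. The groups were separate although fl/fl sham 2 was high, with a rise of 1.70-fold (log2 fold change 0.77 ± 0.18 SE, adjusted p = 0.0110). Nop2, a cytosine methyltransferase of ribosomal RNA, measured 33.3, 35.6, 25.9 and 26.9 CPM after sham and 46.8, 50.8, 48.6 and 54.7 CPM after IRI. Its injured libraries were close together and all higher (log2 fold change 0.72 ± 0.19 SE, adjusted p = 0.0177), and the adjusted p was 0.0633 without fl/fl sham 3 and 0.0591 without fl/fl sham 4. Noc2l shares exon sequence with Samd11 on the other strand, to which the same limit applies as for Tsr1.

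Pes1, Bop1 and Wdr12 form a complex that acts in large subunit RNA processing. Pes1 measured 55.1, 48.9, 46.3 and 45.1 CPM in fl/fl sham and 56.2, 69.4, 69.1 and 79.8 CPM in fl/fl IRI. Its groups were separate by a narrow margin and the rise was 1.41-fold (log2 fold change 0.49 ± 0.15 SE, adjusted p = 0.0349), which 8 of 24 alternatives lost. Bop1 measured 34.1, 41.2, 34.0 and 34.0 CPM after sham and 42.7, 54.3, 57.1 and 36.2 CPM after IRI. It was not called (log2 fold change 0.41 ± 0.19 SE, adjusted p = 0.149), and fl/fl IRI 4, the highest library for most of the 35 genes, was its lowest injured library. Wdr12 was called (log2 fold change 0.58 ± 0.19 SE, adjusted p = 0.0473) although its groups overlapped, and 17 of 24 alternatives lost the call. Its long annotated transcript also matches 5 other genes at 95% identity or more over at least 200 bases, so the Wdr12 value is uncertain. Rrp1b rose from 15.4 ± 1.81 to 31.3 ± 11.3 CPM (log2 fold change 1.02 ± 0.24 SE, adjusted p = 0.0101) and Noc3l from 15.1 ± 0.524 to 21.9 ± 3.61 CPM (adjusted p = 0.0455, lost in 17 of 24 alternatives). Rrs1, a factor that helps join the smallest ribosomal RNA to the large subunit, also had overlapping groups, at 25.8 ± 9.18 and 36.7 ± 3.97 CPM in uninjured and injured tissue (adjusted p = 0.242).

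All 5 nucleolar scaffold and helicase genes rose. Ncl, nucleolin, an abundant protein of nascent precursor packing, measured 214, 213, 194 and 217 CPM in fl/fl sham and 268, 293, 407 and 558 CPM in fl/fl IRI. The injured values ran from a little above the sham range to far above it, with a rise of 1.82-fold (log2 fold change 0.87 ± 0.19 SE, adjusted p = 0.00720). Npm1, the histone-binding scaffold nucleophosmin, measured 94.3, 91.5, 83.2 and 92.4 CPM after sham and 119.7, 141, 219 and 231 CPM after IRI. Libraries fl/fl IRI 3 and 4 were far above the rest, and the rise was 1.97-fold (log2 fold change 0.98 ± 0.20 SE, adjusted p = 0.00611). Ddx21, an RNA helicase of precursor transcription and processing, measured 60.5, 52.7, 46.0 and 51.5 CPM after sham and 72.1, 108, 130.4 and 161 CPM after IRI. The groups were separate, with a rise of 2.24-fold (log2 fold change 1.16 ± 0.19 SE, adjusted p = 0.00152). Mybbp1a, a nucleolar protein that binds MYB and p53, measured 83.6, 86.5, 69.4 and 82.2 CPM after sham and 120.1, 189.6, 189 and 247 CPM after IRI. It had the second smallest p, with a rise of 2.32-fold (log2 fold change 1.21 ± 0.19 SE, adjusted p = 0.00121). Nolc1, a chaperone of snoRNPs, rose from 28.5 ± 0.984 to 41.8 ± 9.20 CPM (adjusted p = 0.0430), with fl/fl IRI 1 inside the sham range and the call lost in 14 of 24 alternatives.

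**Figure D2:**
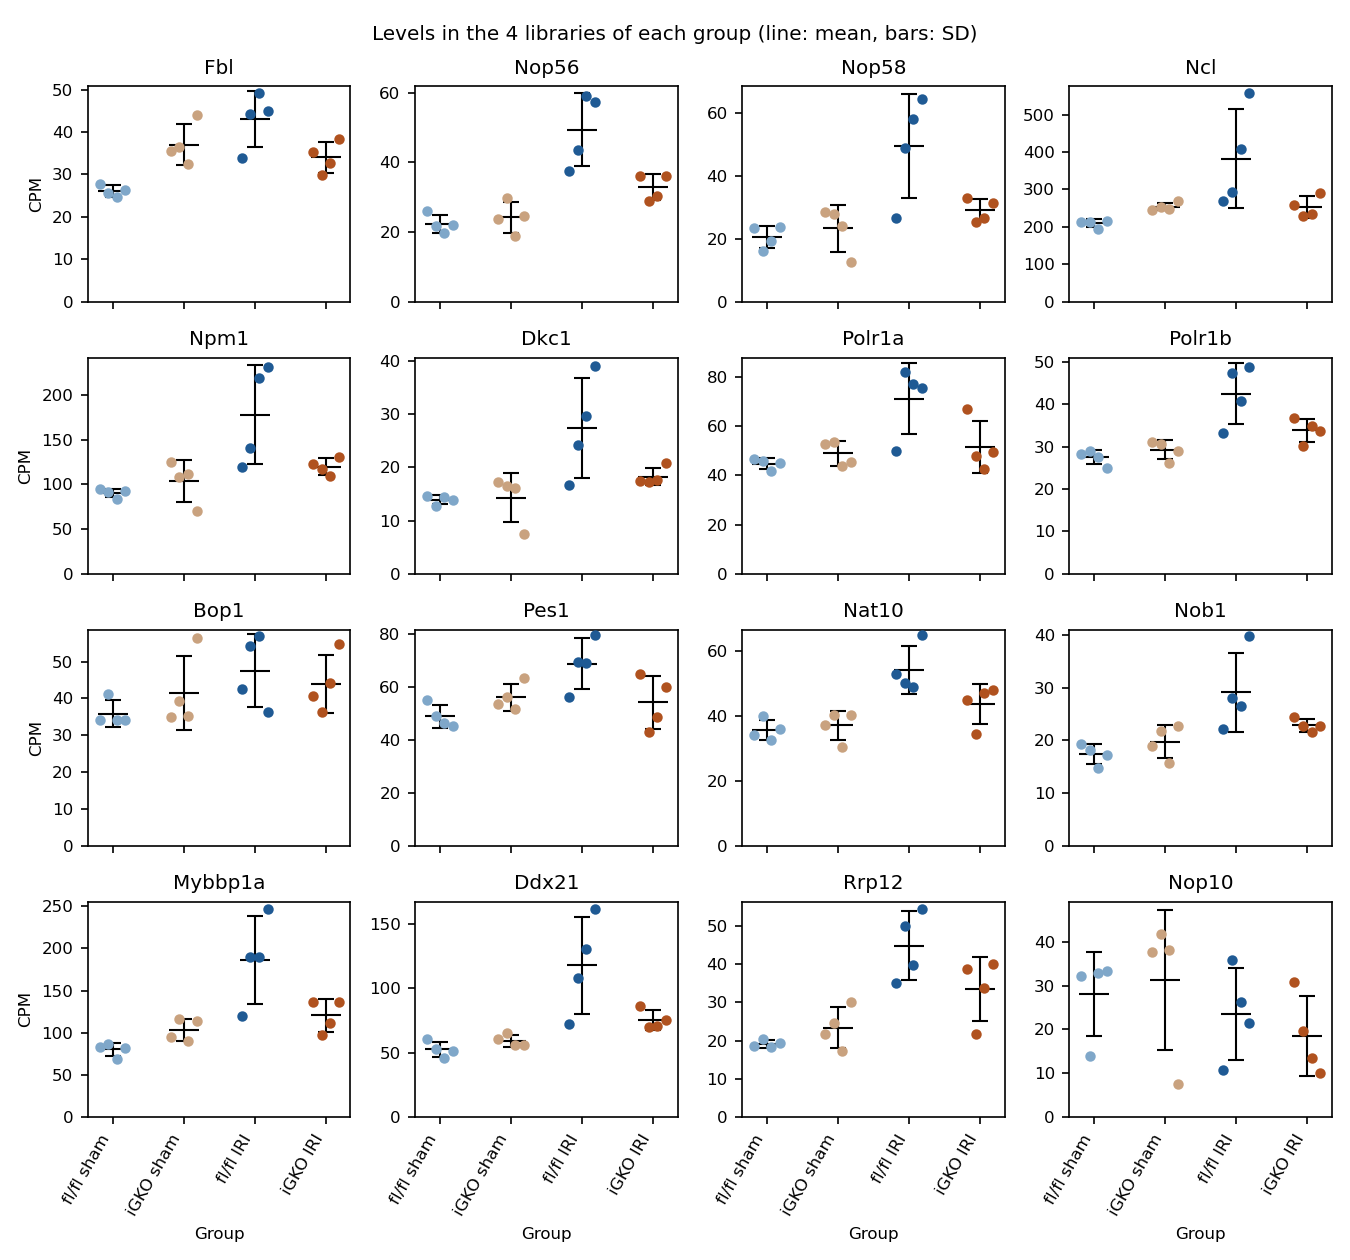
Levels in CPM (vertical axes, from 0) of 16 ribosome biogenesis genes in the 4 libraries of each group, with the mean as a line and the SD as bars. In most panels fl/fl IRI is the highest and most spread group, with a log2 rise of 1.14 for Nop56 and 1.21 for Mybbp1a, while Nop10 shows no such order.

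Levels of the 35 genes differed between the fl/fl IRI libraries. The summed level of the 35 genes was 1284, 1253, 1113 and 1201 CPM in fl/fl sham 1 to 4 and 1556, 2054, 2307 and 2708 CPM in fl/fl IRI 1 to 4. The library fl/fl IRI 1 was the lowest of its group for 31 of the 35 genes and fl/fl IRI 4 the highest for 24. Relative to the fl/fl sham mean, the median of the 35 genes on the log2 scale was 0.35 in fl/fl IRI 1, 0.71 in fl/fl IRI 2, 0.81 in fl/fl IRI 3 and 0.87 in fl/fl IRI 4. Without fl/fl IRI 1, 30 genes were called higher and the median log2 fold change was 0.82, while the count of all genes called higher went from 1520 to 2194. The lowest count of calls over all single libraries left out was 20, without fl/fl sham 3. That fit also had the lowest count over all genes, at 1452 in both directions together. On all libraries 1520 genes were called higher and 1259 lower. The median coefficient of variation of the 35 genes was 22.0% in fl/fl IRI and 10.0% in fl/fl sham, where all genes had 29.0% and 15.9%.

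Several measured features moved with this response. Myc, the transcription factor named above, measured 8.22, 7.46, 6.08 and 9.01 CPM in fl/fl sham and 22.8, 43.5, 71.0 and 113 CPM in fl/fl IRI. Myc rose by 3.02 on the log2 scale (SE 0.39, adjusted p = 0.000583), and its 4 injured libraries had the same order as the summed level of the 35 genes. That order rests on 4 libraries. Myc and the sum also shared an order in iGKO sham, but not in fl/fl sham or iGKO IRI. In fl/fl IRI 1 to 4, summed snoRNA host transcripts (196, 209, 247 and 369 CPM) had the order of the 35 genes too. Summed mitochondrial ribosomal protein genes (2767, 2545, 2282 and 2046 CPM) had the reverse order. Summed MYC network genes (640, 681, 644 and 868 CPM) had neither. Summed tubular injury markers (3730, 11316, 15601 and 9866 CPM) also had neither. The same held for summed neutrophil markers (31.7, 130, 261 and 42.7 CPM). Tubular injury markers rose in 10 of 10 cases and 8 of 14 proximal tubule markers fell, with summed levels of 3730 to 15601 CPM and 6319 to 28969 CPM in fl/fl IRI against 805 to 1522 and 32688 to 41532 CPM in fl/fl sham. All 8 tested neutrophil markers rose, from a sum of 6.68 to 15.8 CPM over 10 genes, 2 of them at 0 in fl/fl sham, to 31.7 to 261 CPM. Of 12 monocyte and macrophage markers, 1 rose, with sums of 163 to 407 CPM after sham and 276 to 1043 CPM after IRI. Of the thick ascending limb markers 3 of 6 fell, as did 2 of 8 endothelial and 1 of 8 distal and collecting duct markers. The mitochondrial share ran from 4.43% to 6.48% after sham and from 2.99% to 5.37% after IRI. None of 20 proliferating cell markers was called, with sums of 137 to 204 CPM in fl/fl sham and 166 to 289 CPM in fl/fl IRI. The part of these markers, of the mitochondrial share and of Myc in the rise of the ribosome biogenesis genes was not tested.

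**Figure D3:**
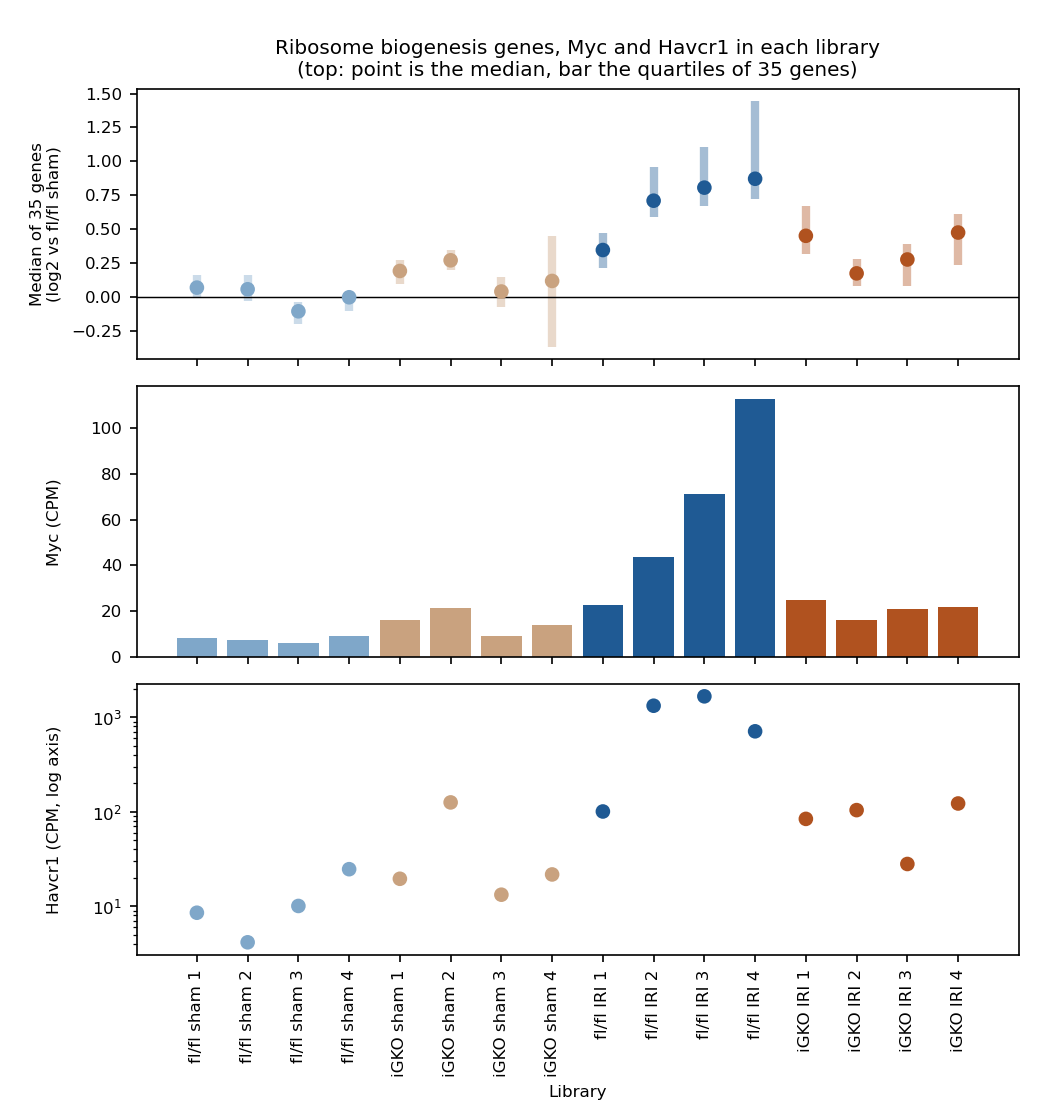
For each library, the top panel shows the median (point) and quartiles (bar) of the 35 genes as log2 level relative to the fl/fl sham mean, the middle panel Myc in CPM and the bottom panel the injury marker Havcr1 in CPM on a log axis. Library fl/fl IRI 1 has the lowest median of its group, 0.35, inside the 0.17 to 0.48 of the iGKO IRI libraries.

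Further lists of the same process were counted in the same comparison. Of 133 tested further ribosome biogenesis factors, 56 were called higher and 1, Mtrex, lower in fl/fl mice after IRI, with a median log2 fold change of 0.48. The 5 with the smallest p were Urb2 (log2 fold change 0.91, adjusted p = 0.00109), Eif6 (log2 fold change 1.62, adjusted p = 0.00179), Nip7 (log2 fold change 0.96, adjusted p = 0.00183), Mdn1 (log2 fold change 0.79, adjusted p = 0.00315) and Utp18 (log2 fold change 0.84, adjusted p = 0.00316). Eif6, which keeps the subunits from joining too early, measured 80.0, 108, 57.9 and 77.9 CPM after sham and 165, 243, 263 and 321 CPM after IRI, with no overlap. Of 14 snoRNA host transcripts, 7 were called higher and the median was 0.94. Cytosolic ribosomal protein genes, the structural products of the pathway, had 15 of 78 called higher and a median of 0.37. Mitochondrial ribosomal protein genes had 2 of 78 called in each direction and a median of -0.10. Of 13 MYC network genes, Myc itself was the only one called, and the median was 0.07. Differences between these lists and the 35 genes were not tested.

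In iGKO kidney no ribosome biogenesis gene was called after IRI. The edgeR test called 0 of 35 genes and 0% of all genes in either direction, and DESeq2 called 0 of the 35 and 43 of all genes. At an unadjusted p under 0.05, 3 genes were higher (8.57%), where 3.86% of all genes were, and 0 were lower, where 2.52% of all genes were. The log2 fold change was positive for 28 of the 35 genes, against 46.4% of all genes, with a median of 0.21. The groups did not overlap for 2 genes, Tsr1 and Ddx21, both higher, where 2.24% of all genes had separate groups in that direction and 2.76% in the other.

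**Figure D4:**
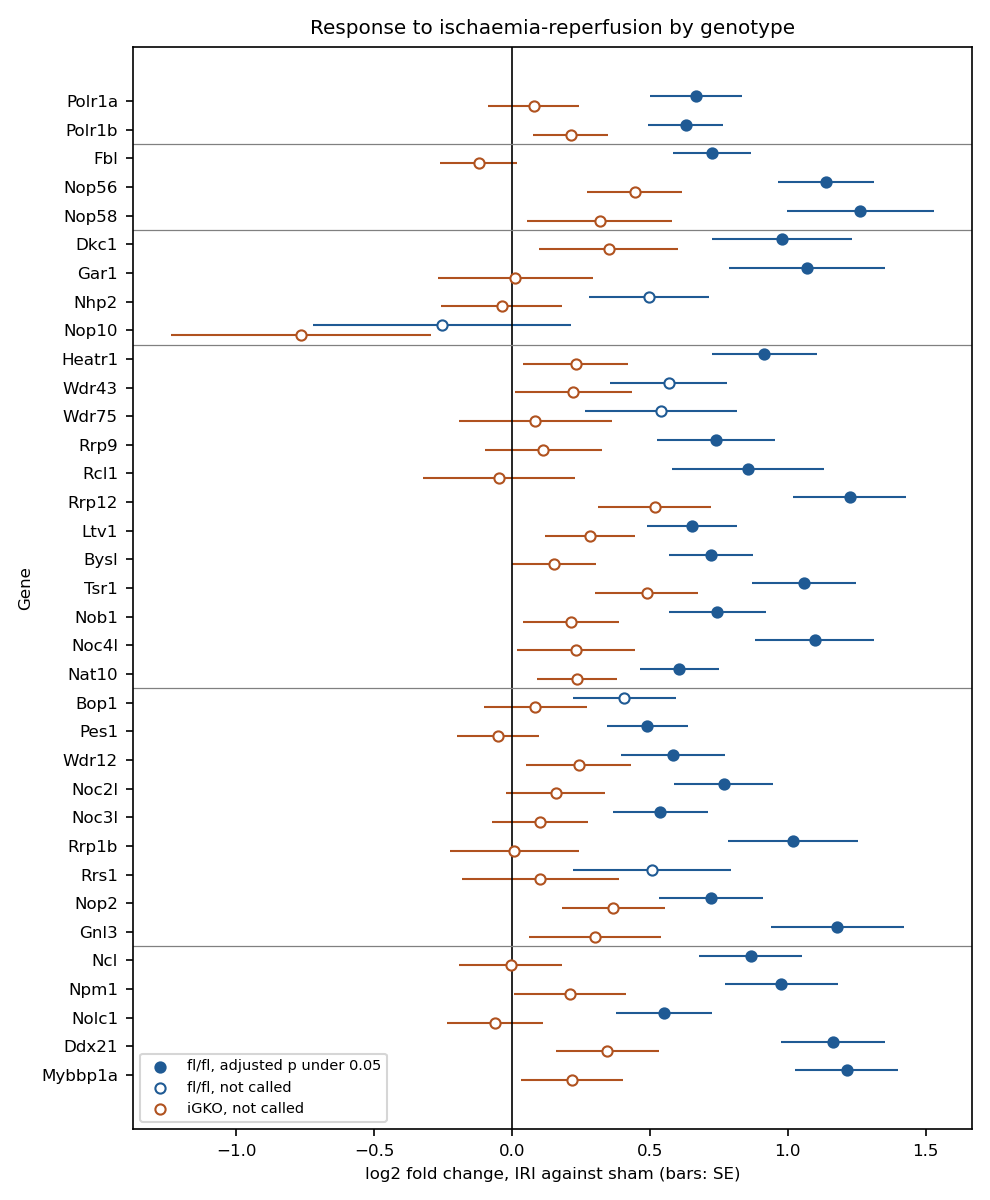
Log2 fold change of IRI against sham (horizontal axis, bars are the SE) for the 35 ribosome biogenesis genes in fl/fl (blue) and iGKO (orange), filled where the adjusted p was under 0.05. The fl/fl points run from -0.25 to 1.26 and the iGKO points from -0.77 to 0.52.

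The 6 genes with the smallest p in iGKO were Tsr1, Nop56, Rrp12, Nop2, Ddx21 and Ltv1. Tsr1 measured 26.5, 30.3, 26.7 and 23.7 CPM in iGKO sham and 43.0, 34.2, 37.3 and 35.9 CPM in iGKO IRI. All its injured libraries were higher, most of all iGKO IRI 1, and the fold change was 1.40 (log2 fold change 0.49 ± 0.19 SE, adjusted p = 0.682). Nop56 measured 23.9, 29.7, 18.8 and 24.5 CPM after sham and 36.2, 29.1, 30.4 and 36.1 CPM after IRI. Its iGKO IRI 2 value was just below the highest sham value, with a fold change of 1.36 (log2 fold change 0.44 ± 0.17 SE, adjusted p = 0.689). Rrp12 measured 21.7, 24.6, 17.4 and 30.0 CPM after sham and 38.6, 21.7, 33.8 and 39.9 CPM after IRI. The value of iGKO IRI 2 was again within the sham range (log2 fold change 0.52 ± 0.20 SE, adjusted p = 0.689).

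Nop2 measured 39.3, 33.5, 28.6 and 48.8 CPM in iGKO sham and 50.3, 33.6, 50.0 and 59.8 CPM in iGKO IRI. Library iGKO sham 4 lay within the injured range, and iGKO IRI 2 within the sham range (log2 fold change 0.37 ± 0.19 SE, adjusted p = 0.810). Ddx21 measured 60.6, 65.4, 56.0 and 55.8 CPM after sham and 86.0, 69.7, 70.6 and 75.7 CPM after IRI. Every injured value was above every sham value (log2 fold change 0.35 ± 0.19 SE, adjusted p = 0.845). Ltv1 measured 17.1, 20.2, 17.2 and 14.2 CPM after sham and 23.1, 18.6, 19.2 and 22.7 CPM after IRI, with overlapping groups (log2 fold change 0.28 ± 0.16 SE, adjusted p = 0.882).

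The remaining genes of the core machinery had overlapping groups in iGKO mice. Polr1a measured 53.0, 53.5, 43.9 and 45.5 CPM in iGKO sham and 67.0, 47.9, 42.6 and 49.4 CPM in iGKO IRI, and only iGKO IRI 1 was above the sham range. Polr1b measured 31.2, 30.8, 26.2 and 29.0 and 36.8, 30.3, 34.8 and 33.8 CPM, with overlap. Fbl measured 35.4, 36.4, 32.4 and 43.9 and 35.3, 29.9, 32.7 and 38.4 CPM. Its injured mean was below its sham mean, and iGKO sham 4 was its highest library. Nop58 measured 28.6, 27.9, 24.2 and 12.7 and 32.9, 25.5, 26.8 and 31.4 CPM. For Nop58 the low value of iGKO sham 4 sets the spread of the sham group. Dkc1 measured 17.3, 16.5, 16.1 and 7.41 and 17.5, 17.3, 17.6 and 20.7 CPM, with the same low sham library.

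Nob1 measured 18.8, 21.8, 15.6 and 22.6 CPM in iGKO sham and 24.5, 22.8, 21.5 and 22.6 CPM in iGKO IRI. Nat10 measured 37.2, 40.1, 30.5 and 40.2 and 44.8, 34.4, 47.1 and 47.8 CPM. Both genes had overlapping groups. Pes1 measured 53.3, 56.1, 51.5 and 63.2 and 64.9, 43.0, 48.7 and 59.9 CPM, and Bop1 35.1, 39.2, 35.1 and 56.3 and 40.6, 36.2, 44.2 and 54.7 CPM. In each of these genes of the large subunit complex iGKO sham 4 was the highest sham library. Npm1 measured 125, 109, 111 and 69.6 and 123, 117, 109 and 131 CPM, again with a low iGKO sham 4.

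The library iGKO sham 4 split the 35 genes. It was the lowest of its group for 14 and the highest for 13, and the quartiles of the 35 genes relative to the fl/fl sham mean were -0.37 and 0.45 on the log2 scale. Low genes included Nop10 at 7.61 CPM against 37.7 to 41.6 CPM in the other iGKO sham libraries, and Wdr75 at 7.55 against 20.2 to 22.8 CPM. High genes included Rrs1 at 51.3 against 20.7 to 28.6 CPM and Rrp9 at 28.3 against 13.2 to 16.2 CPM. Without this library the median log2 fold change of the 35 genes in iGKO mice was 0.13 and no gene was called. Nop10 was also low in iGKO IRI 4, at 10.0 CPM, where Rrs1 was high at 48.7 CPM. The mitochondrial share was 2.05% in iGKO IRI 4, the lowest of its group, and its part in these levels was not tested.

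Summed over the 35 genes, the level was 1408, 1483, 1298 and 1394 CPM in iGKO sham 1 to 4 and 1671, 1355, 1432 and 1686 CPM in iGKO IRI 1 to 4. Myc measured 16.0, 21.6, 9.11 and 13.9 CPM in iGKO sham and 24.9, 16.1, 20.9 and 21.8 CPM in iGKO IRI, with overlapping groups (log2 fold change 0.46, adjusted p = 0.959). Injury markers summed to 1090 to 2409 CPM in iGKO sham and 1617 to 3320 CPM in iGKO IRI, proximal tubule markers to 36727 to 40113 and 23575 to 27863 CPM, and neutrophil markers to 3.5 to 22.8 and 13.8 to 51.8 CPM, with 0 genes called in these lists. Monocyte and macrophage markers summed to 196 to 316 CPM in iGKO sham and 315 to 797 CPM in iGKO IRI, with a positive log2 fold change for 12 of 12 and an unadjusted p under 0.05 for 7. Fibroblast and mural markers summed to 848 to 1905 and 1191 to 10146 CPM, with 8 of 8 positive and 4 at that unadjusted level, and 0 of either list was called. The library iGKO IRI 2, with the highest sum of both lists, was the lowest of its group for 21 of the 35 ribosome biogenesis genes. Without it the median of the 35 genes was 0.22 and 0 were called. Their part in the levels of the ribosome biogenesis genes was not tested. Among 133 further biogenesis factors 0 were called in iGKO mice, with a median log2 fold change of 0.09. Those with the smallest p were Nle1 (log2 fold change 0.60, adjusted p = 0.701), Urb2 (log2 fold change 0.32, adjusted p = 0.747), Nip7 (log2 fold change 0.36, adjusted p = 0.755), Pwp2 (log2 fold change 0.42, adjusted p = 0.765) and Nop16 (log2 fold change 0.38, adjusted p = 0.774). Medians were 0.02 for cytosolic and -0.03 for mitochondrial ribosomal protein genes and 0.24 for snoRNA hosts.

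Between the sham groups no ribosome biogenesis gene was called by genotype. Both edgeR and DESeq2 called 0 of 35 genes, where edgeR called 0% of all genes, and at an unadjusted p under 0.05 only Fbl was higher (2.86%, against 0.595% of all genes) and 0 were lower. The log2 fold change of iGKO against fl/fl was positive for 33 of the 35 genes, against 52.2% of all genes, with a median of 0.17. It was also positive for 76 of 78 cytosolic ribosomal protein genes (median 0.18) and for 10 of 10 tubular injury markers (median 0.46, summed level 1090 to 2409 CPM in iGKO sham against 805 to 1522 CPM in fl/fl sham), with 0 called in both lists. The part of the injury markers in these levels was not tested. Groups did not overlap for 3 genes, all higher in iGKO sham, namely Fbl, Ncl and Mybbp1a, against 1.05% of all genes. Fbl measured 27.8, 25.6, 24.7 and 26.3 CPM in fl/fl sham and 35.4, 36.4, 32.4 and 43.9 CPM in iGKO sham, and all 4 iGKO libraries were higher (log2 fold change 0.51 ± 0.14 SE, adjusted p = 1.00). Ncl was tightly grouped, at 194 to 217 CPM in fl/fl sham and 246 to 269 CPM in iGKO sham. Mybbp1a measured 83.6, 86.5, 69.4 and 82.2 and 94.6, 116, 90.2 and 114 CPM (log2 fold change 0.37 ± 0.19 SE, adjusted p = 1.00). Noc2l measured 51.7, 57.0, 48.5 and 79.4 CPM in iGKO sham, overlapping fl/fl sham (log2 fold change 0.31 ± 0.18 SE, adjusted p = 1.00). The Myc level was 7.69 ± 1.25 CPM in fl/fl sham and 15.1 ± 5.18 CPM in iGKO sham, which was not called either (log2 fold change 0.98, adjusted p = 1.00).

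After IRI every one of the 35 genes had a lower fitted level in iGKO than in fl/fl mice, but edgeR called none. The log2 fold change was negative for all 35, where 48.6% of all genes had a positive one, and the median was -0.45. By edgeR 0 genes were called, against 0.178% of all genes called higher and 0.673% called lower. DESeq2 called 5 lower, but it also called more of all genes than edgeR did, as counted in the closing section. At an unadjusted p under 0.05, 22 genes were lower (62.9%), against 10.2% of all genes, and 0 were higher, against 8.94%. These values share the fl/fl IRI libraries with the response in fl/fl mice and are not separate evidence of it.

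The count depended on fl/fl IRI 1. Without it 18 of the 35 genes were called lower and the median was -0.60, while the count of all genes called lower went from 121 to 1213. Without iGKO sham 4 the count was 1 (176 of all genes), and with both libraries left out it was 23 (1973 of all genes). Without iGKO IRI 2 the median was -0.39, and 0 of the 35 and 0 of all genes were called. The smallest p belonged to Gnl3, Ddx21 and Nop56. Gnl3 measured 33.6, 49.8, 56.6 and 78.2 CPM in fl/fl IRI and 32.1, 30.3, 28.4 and 28.8 CPM in iGKO IRI. The iGKO values were tightly grouped and all below the fl/fl values (log2 fold change -0.87 ± 0.24 SE, adjusted p = 0.0829). Ddx21 had a log2 fold change of -0.64 (adjusted p = 0.0963), and its iGKO IRI 1 and iGKO IRI 4 values were above that of fl/fl IRI 1. Nop56 had a log2 fold change of -0.58 (adjusted p = 0.100) and no overlap between the groups. Besides Gnl3 and Nop56, Nat10 was the only gene whose groups did not overlap, which makes 3 lower (8.57%) against 3.04% of all genes, and 0 higher against 2.48%. Of the further biogenesis factors 1, Las1l, was called lower. In this comparison 6 of 10 injury markers were called lower in iGKO, and Myc had a log2 fold change of -1.58 (adjusted p = 0.0507). At an unadjusted p under 0.05, 9 of 14 proximal tubule markers were higher in iGKO (median 0.72), as were 5 of 8 fibroblast and mural markers (median 1.39), and 7 of 8 tested neutrophil markers were lower (median -2.22), none of them called. Their part in the lower levels was not tested.

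The genotype difference in the response was tested as an interaction, the log2 response in iGKO minus that in fl/fl mice. It was negative for all 35 genes, where 47.9% of all genes had a positive value, with a median of -0.61. No gene was called by edgeR, among the 35 or among all genes (0%), while DESeq2 called 1 of the 35, lower. DESeq2 also called further genes outside the 35, as counted in the closing section. At an unadjusted p under 0.05, 22 of the 35 were lower (62.9%), against 6.51% of all genes, and 0 were higher, against 4.8%. These values share their libraries with the comparisons above and are not separate evidence of them. Fbl had the smallest p (log2 fold change -0.85 ± 0.20 SE, adjusted p = 0.253), followed by Mybbp1a (log2 fold change -0.995 ± 0.26 SE, adjusted p = 0.262) and Ncl (log2 fold change -0.87 ± 0.26 SE, adjusted p = 0.273). In Ncl the levels were 246, 254, 248 and 269 CPM in iGKO sham and 259.6, 229, 234 and 292 CPM in iGKO IRI, with overlap, beside the separate fl/fl groups. For Mybbp1a iGKO IRI measured 136, 97.5, 112 and 136 CPM, within or a little above its sham range. Without fl/fl IRI 1 the count called lower was 6 (395 of all genes), and without that library and iGKO sham 4 it was 17 (784 of all genes). Without iGKO IRI 2 it was 0, with a median of -0.54.

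Over the 4 groups, the mean level was highest in fl/fl IRI for 34 of the 35 genes, against 37.6% of all genes, and in iGKO sham for the other, Nop10. Per kb of the principal transcript, which allows genes to be compared, Npm1 was the most abundant in fl/fl sham at 55.3 CPM per kb, followed by Nhp2 at 40.2, Ncl at 25.5, Nop10 at 25.3 and Fbl at 21.8. This order depends on the annotated length: the transcript used is 8202 bases long for Ncl and 1633 for Npm1, and per library Ncl had the higher level, at 209.5 ± 10.5 CPM against 90.4 ± 4.95 CPM in fl/fl sham. In fl/fl IRI the level of Npm1 was 109 CPM per kb and it remained first, with Nhp2 at 56.8 and Ncl at 46.5. Gar1 was among the lowest, at 2.99 CPM per kb in fl/fl sham and 6.28 in fl/fl IRI, although its protein acts in the particle that holds Nhp2 and Nop10. The 7 genes with snoRNA genes within their span on the same strand, 21 in all, were Nop56, Nop58, Dkc1, Wdr43, Tsr1, Gnl3 and Ncl. Whether reads from those small RNAs were counted with the host was not tested. Exons of 16 of the 35 genes overlap a gene on the other strand. Libraries were made with a stranded kit, but the strand setting of the counting was not given in the sources used here. Processed copies of Fbl, Nop56, Npm1, Pes1 and Ddx21 elsewhere in the genome held at most 1.13% as many reads as the gene itself.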

How the data were processed

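Kidney cortex RNA of 16 libraries was sequenced after ribosomal RNA depletion with a stranded kit, per the labels' protocols. The deposited values were raw counts per gene, whole reads with no normalization. The build GRCm39 (mm39) and the tools MultiQC, Picard, FastQC, DESeq2 1.36.0, featureCounts 1.6.3, STAR 2.7.9a and cutadapt 1.16 come from the submitters' processing notes. Neither the annotation release nor the setting for strand is given in the sources used here. Symbols came from GENCODE M21, an earlier build, by gene identifier: 52073 matched, and 4907 did not, with 0.840% to 1.77% of counts.

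Low genes were removed with filterByExpr, given the groups, and libraries were scaled by TMM (factors 0.935 to 1.09). All 16 libraries entered 1 quasi-likelihood fit in edgeR 4.0.16 (R 4.3.3), with a coefficient for each group. The 5 contrasts were IRI against sham in each genotype, iGKO against fl/fl after each operation, and the interaction. Tests were two-sided, with p-values adjusted over 17972 genes. The SE is the log2 fold change divided by the root of F. Relative levels used log2(CPM + 0.5). DESeq2 1.42.0 was an alternative, with others listed in the closing section. The scripts were tested on simulated data. The lowest count of a gene in a library was 44. The counting error of the 35 genes in fl/fl sham had a median of 5.21% and reached 13.6% for Gar1, and it exceeded the observed CV for 7 genes there. No pair of libraries had identical counts.

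The 35 genes, the lists and the 24 alternatives were chosen with earlier results of these data known. Values by library are given for Fbl, Nop56, Nop58, Ncl, Npm1, Dkc1, Polr1a, Polr1b, Bop1, Pes1, Nat10 and Nob1, and for the 6 genes of smallest p in each comparison of IRI with sham and the 3 of smallest p in each other contrast. Other genes, such as Nop10, Rcl1 and Rrs1, were singled out after their values were seen. Of 467 list genes 462 had a match.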

Additional observations from a re-analysis of the deposited data

Results flagged for a closer look

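A library was noted where it lay far from the other 3 of its group by Dixon's ratio. Of 140 groups of 4 values, 12 held such a library, and chance gives about 1 in 20.

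In iGKO sham 4, Dkc1 (7.41 CPM, others 16.1 to 17.3), Nop10 (7.61, others 37.7 to 41.6) and Wdr75 (7.55, others 20.2 to 22.8) were low and Nhp2 (57.7, others 38.2 to 41.1) was high. In fl/fl sham 2, Nop10 was low (13.9, others 32.2 to 33.4), while Gar1 (4.22, others 3.63 to 3.70), Bop1 (41.2, others 34.0 to 34.1) and Noc2l (60.8, others 42.5 to 44.6) were high. Nhp2 (66.9, others 34.4 to 36.3) and Dkc1 (20.7, others 17.3 to 17.6) were high in iGKO IRI 4. Heatr1 (65.9, others 48.3 to 49.8) and Nolc1 (39.2, others 26.6 to 28.7) were high in iGKO IRI 1. Thus Nop10 was low in 2 of the libraries in which another gene of the list was high, and no cause was tested.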

How the results depend on the processing

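Of the 29 genes called in fl/fl mice, 19 were called in all 24 alternatives, and 3 of the 35 (Nhp2, Nop10 and Rrs1) in none. No direction of a called gene reversed. With each library left out in turn, the count of the 35 called ran from 20 to 30 in fl/fl mice, from 0 to 18 between genotypes after IRI and from 0 to 6 in the interaction, and it was 0 in iGKO mice and between sham groups. The medians ran from 0.68 to 0.82, from -0.60 to -0.36, from -0.74 to -0.54, from 0.13 to 0.23 and from 0.11 to 0.22. The counts over all genes, 2779, 153, 0, 0 and 0 on all libraries, ran from 1452 to 4335, from 0 to 2495, from 0 to 776, from 0 to 1 and from 0 to 0.

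For the genotypes after IRI, DESeq2 called 5 of the 35 and 911 of all genes, library size alone gave 85 genes, no filter 352 and the compared groups alone 0. Without fl/fl IRI 1 and iGKO sham 4 these counts were 23 and 3816. For the interaction DESeq2 called 1 and 101, no filter 15 genes, and leaving out both libraries 17 and 1489. All-gene counts in iGKO mice were 43 with DESeq2 and 4 with no filter. In fl/fl mice they were 1526 with the compared groups alone and 5508 without both libraries. The cause of these shifts was not tested. The interaction needs all groups, so it was not refitted on fewer.

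The labels did not say that replicate numbers pair the samples. Over 24 same-number pairs the correlation of deviations ran from -0.35 to 0.43. The median was 0.014 for the same number and -0.006 for other numbers, and 7 of 16 libraries correlated best with their own number. These values cannot exclude a pairing. With a replicate block, 25 of the 35 genes were called in fl/fl mice, 0 genes in all between genotypes after IRI and 1 in the interaction. The share over all genes with this block in fl/fl mice is not given here.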
